A study of Rattus norvegicus with 24 samples.

Results

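Colonic tumours of rats that drank dextran sodium sulfate (DSS) were compared with colonic tumours of untreated rats. The comparison was chosen by the sample titles and holds 11 of the 24 arrays of the series, from 10 tumours of 10 rats, 5 per treatment. All rats were male (ACIxF344)F1-Pirc animals of genotype Apc-Pirc/+, an F1 cross of 2 inbred strains that carries 1 mutant copy of the tumour suppressor Apc in every cell, and all tissue was taken at 97 days of age. The DSS rats, numbered 1, 5, 6, 7 and 9, had 4% DSS of molecular weight 500000 in the drinking water from day 40 to day 47 and again from day 54 to day 61. The untreated rats, numbered 2, 3, 4, 8 and 10, had no DSS. The other 13 arrays hold normal distal colon of the same 10 rats. Tumour values are set against them, and they share with the tumours the model, its estimate of spread and the filter on signal. Rat 6 has 2 tumour arrays, which were averaged, and the labels do not say whether the second is another tumour or a repeat. The rats of each treatment are separate animals, so p-values measure a spread between animals, which was pooled over both tissues. The 2 tissues of a rat entered the main fit as independent samples, and counts with rat as a block are given below.

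Apc is a scaffold of the complex that marks beta-catenin for destruction. When both copies fail, beta-catenin enters the nucleus and Wnt target genes are switched on, which starts most colonic adenomas. DSS strips and inflames the colonic lining, and the injury draws in neutrophils and macrophages and is followed by regrowth of the epithelium.

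Every value is the log2 ratio of the Cy3-labelled sample over a Cy5-labelled pool of wild-type rat colon RNA, so 0 means the level of the pool, and a difference of 1 between tumours is a 2-fold difference. The tissue label was set against known tumour genes. Mmp7, a secreted protease and Wnt target of intestinal adenomas, stood at 4.54 to 5.92 in untreated tumours and at 4.84 to 5.98 in DSS tumours, against -0.70 to -0.07 in untreated normal colon. Slc26a3, the chloride and bicarbonate exchanger of mature colonocytes, ran from -5.97 to -2.01 in the 10 tumours, and from -0.44 to 2.14 in untreated normal colon. Both genes thus separated tumours from untreated normal colon without overlap. In DSS normal colon Mmp7 was at 2.54 to 3.93, below every tumour. Slc26a3 was at -2.05 to -0.03 there, and its lowest value lay just below the tumour of untreated rat 2. Apc itself was at -0.30 to 0.19 in untreated tumours and at -0.59 to 0.19 in DSS tumours. The Pirc allele is a point mutation, so this level does not check the genotype.

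The arrays came from 6 slides of 4 arrays in 2 sets of slide barcodes, here called slide sets, which no label states. Slide set 1 held 3 rats of each treatment (DSS rats 1, 5 and 6, untreated rats 2, 3 and 4) and slide set 2 held 2 (DSS rats 7 and 9, untreated rats 8 and 10). Tumours resembled each other by slide set more than by treatment. Across genes, which are not independent replicates, the median correlation of log2 ratios was 0.904 for 8 pairs of tumours of the same set and treatment and 0.854 for 13 pairs of the same set and different treatment. Pairs from different sets had a median of 0.761 with the same treatment (12 pairs) and 0.788 with different treatment (12 pairs). Slide set was therefore a term of the model, and values within each set are given beside many of the results. The tumour array of DSS rat 9 stood apart in signal: 86.88% of its probes were well above background, against 47.58% to 70.54% on the other tumour arrays. Values of rat 9 that stand apart are named below. Precision is limited by the number of arrays.

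No gene passed the test for a difference between DSS and untreated tumours. limma's moderated test, with Benjamini-Hochberg adjustment over 26684 features (probes or genes) and a threshold of 0.05, called 0 of them (0%), and the smallest adjusted p was 0.0613, shared by 38 features. At an unadjusted p under 0.05 there were 2548 features (9.55%), of which 1467 (5.50%) had higher and 1081 (4.05%) had lower values in DSS tumours. This count depended on normalization, with 1193 after scale normalization between arrays and 4309 with arrays centred on the median in place of loess. Without the slide set term 0 features passed, 1674 (6.27%) had an unadjusted p under 0.05 and the smallest adjusted p was 0.167. In a fit to the 10 tumours alone 0 features passed, 2241 had an unadjusted p under 0.05 and the smallest adjusted p was 0.191. The 5 DSS tumours all lay above the 5 untreated ones for 127 features (0.481%) and all below for 87 (0.329%) of 26406 features measured in every tumour. For 25821 features (96.8%) the 95% interval of the difference lay within 2-fold in either direction. The offset that was added to the signals pulls the ratios of dim probes towards 0 and narrows such intervals.

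The count of 0 depended on rat 6. With only the first of the 2 tumour arrays of this rat 70 features passed (32 higher and 38 lower in DSS tumours), and with only the second 0 passed. The 2 arrays correlated at 0.957 across genes. Leaving out rats in turn gave 7 features without untreated rat 2, 3 without DSS rat 6, 1 without untreated rat 3 and 0 without any other rat.

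The 24 genes named first are the 12 with the smallest p in each direction, none of them past the threshold, and all with an adjusted p of 0.0613 by limma. This choice rests on the fit with slide set. Without that term their adjusted p by limma ran from 0.167 (Alas1 and Ptov1) to 0.837 (Nckap1). Their tumour difference enters each test against normal colon given below, so its adjusted p is not independent of the choice. The same holds for list members named for a small p. Bulk tissue was measured, so fewer cells of a type and less RNA per cell cannot be told apart for any of these genes.

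Clca4, of the family of calcium-activated chloride channel regulators made by surface epithelium, had the largest mean difference of the 12 genes with lower values. Its log2 ratio was 1.34, 1.33, 1.86, 0.88 and 0.29 in the tumours of DSS rats 1, 5, 6, 7 and 9, and 2.91, 2.14, 3.06, 2.11 and 2.0 in those of untreated rats 2, 3, 4, 8 and 10. Every DSS tumour lay below every untreated tumour, with a difference of -1.30 (SE 0.23, 95% interval -1.78 to -0.83), or 2.47-fold lower. Within slide set 1 the difference was -1.19 and within slide set 2 it was -1.47. In normal colon the same gene rose with DSS by 1.02 (SE 0.23, adjusted p = 0.00655), and the DSS effects in the 2 tissues differed by -2.32 (SE 0.32, adjusted p = 0.000548). A near relative of this gene, Clca4l, is described with the genes of normal colon below, and cross-hybridization between both probes was not tested.

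Alas1, the rate-limiting enzyme of haem synthesis, was at -0.21, -0.25, 0.18, -0.18 and -0.37 in the 5 DSS tumours and at 0.72, 0.46, 1.12, 0.92 and 0.33 in the 5 untreated tumours, in the same order of rats. The groups did not overlap, and the difference was -0.88 (SE 0.16), alike in both slide sets (-0.86 and -0.90). In normal colon the difference for Alas1 was 0.03 (SE 0.16, adjusted p = 0.94), and the test of the 2 effects against each other gave -0.90 (adjusted p = 0.0285). Heph, the ferroxidase that helps iron leave enterocytes, had a difference of -0.54 (SE 0.10), with overlapping groups. Of the 18 measured genes of haem synthesis and breakdown, 3 had higher and 2 lower values at an unadjusted p under 0.05. Of all features 5.50% and 4.05% did, and the median of the list was 0.02. Fech, which inserts the iron in the last step of haem synthesis, had a difference of 0.50 (SE 0.20, adjusted p = 0.404), so the values of the first and last enzymes of the pathway had opposite signs.

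Rac2, a small GTPase of blood cells, stood at -0.16, -0.62, -0.40, -0.43 and 0.08 in DSS tumours and at 0.45, 0.20, 0.69, 0.34 and 0.38 in untreated tumours. There was no overlap, and the difference was -0.72 (SE 0.12). In normal colon Rac2 rose with DSS by 0.73 (adjusted p = 0.000879), and the effects differed by -1.45 (SE 0.17, adjusted p = 0.000213). Rac2 was listed among T and NK cell genes, of which 22 were measured. 2 of these had lower and 0 higher values at an unadjusted p under 0.05, beside 4.05% and 5.50% of all features. The median was -0.08, so the list as a whole lay close to the median of all features, 0.0057.

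A gene of cell death was also among the 12. Gsdmd, whose cleaved form opens the membrane pores of pyroptosis, was at -0.17, 0.10, -0.17, -0.81 and -1.26 in DSS tumours and at 0.85, 0.59, 1.26, -0.05 and -0.44 in untreated ones. The pooled groups overlapped because slide set 2 read lower in both treatments. Within each slide set every DSS tumour was below every untreated tumour, and the difference was -0.90 (SE 0.15). It was -0.98 in set 1 and -0.78 in set 2. The test of its effect in tumours against that in normal colon did not pass the threshold (adjusted p = 0.112).

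The remaining genes with lower values lay between -1.07 and -0.45. They were Rnf128, an E3 ubiquitin ligase (-1.07, SE 0.20, no overlap, with -0.67 in slide set 1 and -1.66 in set 2), Nckap1, of the WAVE complex that drives actin branching (-0.63), Ap2a2, of the AP-2 clathrin adaptor (-0.60), Sec23a, of the COPII coat (-0.50, no overlap), Scarb2, a lysosomal membrane protein (-0.48), and Ostf1 (-0.45, no overlap). Other probes of these genes did not all have the same size of difference. Those for Sec23a gave -0.11 and -0.23, those for Rnf128 -0.67 and -0.70, and that for Ostf1 -0.43. With arrays centred on the median in place of loess, which moved the median of all features from 0.0057 to 0.224, Heph, Sec23a, Scarb2 and Ostf1 changed sign, and all 4 remained below that median. Under the same centring Ap2a2 was at -0.0027 and Nckap1 at -0.011, and Alas1, Rac2 and Gsdmd were at -0.22, -0.20 and -0.28.

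Among the 12 genes with higher values, Rasd2, a small GTPase of the Ras family, had the largest difference. It was at 1.23, 0.74, 0.93, 1.38 and 1.51 in DSS tumours and at 0.62, 0.55, -0.29, 0.30 and 0.69 in untreated tumours. All DSS tumours lay above all untreated tumours, by 0.79 on average (SE 0.15), and the difference from the effect in normal colon was 1.19 (adjusted p = 0.00414). A second Rasd2 probe gave 0.31 (SE 0.08).

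Bcat2, the mitochondrial enzyme that starts the breakdown of branched-chain amino acids, was at 0.87, 0.43, 0.11, 0.33 and -0.07 in DSS tumours and at -0.29, -0.13, -0.55, -0.44 and -0.84 in untreated tumours. Again the groups did not overlap, and the difference was 0.78 (SE 0.15), with 0.79 in slide set 1 and 0.77 in slide set 2. Prkag2, a regulatory subunit of the energy sensor AMPK, had a difference of 0.71 (SE 0.14) with overlapping groups. For both enzymes the effect in tumours was above that in normal colon, by 0.97 for Bcat2 (adjusted p = 0.0166) and by 1.13 for Prkag2 (adjusted p = 0.00292).

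Of the other genes with higher values, Kif12, a kinesin motor, differed by 0.66 (SE 0.12), Ptov1 by 0.66 (SE 0.12) and Dhps, which makes the hypusine residue of the translation factor eIF5A, by 0.46 (SE 0.09), each without overlap. Tmem132a differed by 0.76, Pick1 by 0.51 (no overlap, with 0.31 in slide set 1 and 0.81 in set 2) and Ppp1r1b, a phosphatase inhibitor, by 0.50. The last 3 were Hsp90ab1-ps3 (0.60, no overlap), Tead2-ps1 (0.62) and Rpl6-ps7 (0.42), named by RefSeq as pseudogenes, and whether their probes read the parent genes was not tested. Hsp90ab1, a parent gene with its own probe, had a difference of 0.37 (SE 0.11, adjusted p = 0.219).

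**Figure D1:**
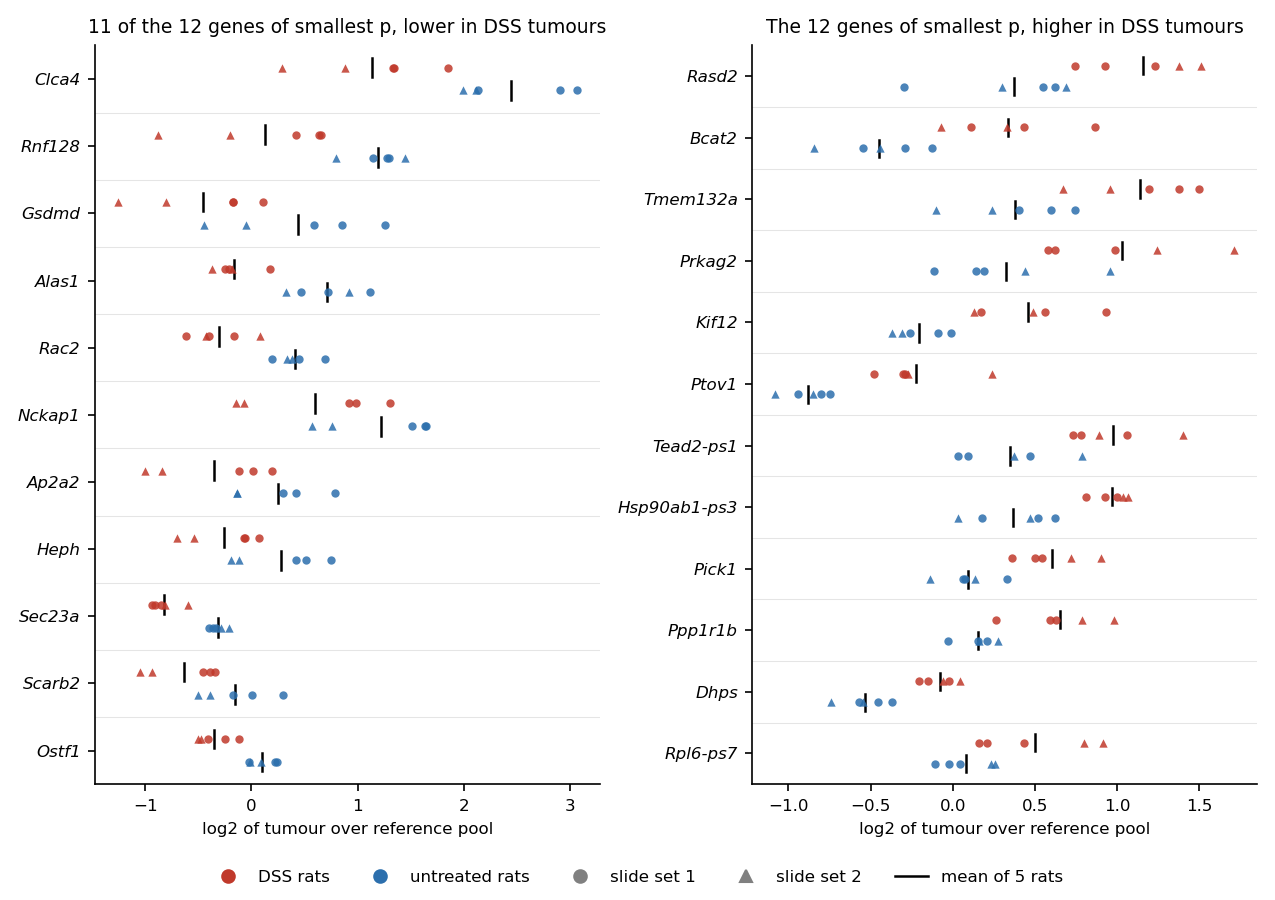
Log2 ratio of tumour RNA over the reference pool (x axis) for 11 of the 12 genes of smallest p with lower values (left) and the 12 with higher values in DSS tumours (right). Each point is 1 rat, red for DSS and blue for untreated, circles for slide set 1 and triangles for slide set 2, and the bar is the mean of 5 rats. Clca4, with DSS tumours at 0.29 to 1.86 and untreated tumours at 2.0 to 3.06, has the largest difference of means on the left, while in Gsdmd the triangles lie to the left in both treatments and the groups overlap.

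The gene groups were read against all features. In all 32 lists 0 genes passed the threshold. Counts of list members at an unadjusted p under 0.05 are to be read beside 5.50% higher and 4.05% lower among all features. The lists that leaned furthest were cell cycle and ribosome biogenesis with higher values in DSS tumours, and the regenerative epithelial genes, MHC class II, glycolysis, absorptive colonocyte and neutrophil genes with lower values. The medians given for a list have no test, and the lists were chosen with earlier results of these data known. List medians were not computed under other normalizations. Median centring in place of loess moved the median of all features from 0.0057 to 0.224, a shift as large as most list medians.

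Glycolysis feeds growth where oxygen is short, and most genes of its list are targets of the hypoxia-inducible factors. Of the 31 genes of hypoxia and glycolysis, 10 had lower values at an unadjusted p under 0.05 and 0 had higher values, where 4.05% and 5.50% of all features did. Without the slide set term 4 had lower and 0 higher values at that p. The median difference was -0.23, with 25 of the 31 below 0, and it was -0.26 in slide set 1 and -0.06 in slide set 2. The member with the smallest p was Slc16a3, which exports lactate from glycolytic cells. It was at 2.10, 2.26, 2.47, 1.13 and 1.30 in DSS tumours and at 2.88, 2.71, 3.32, 2.83 and 2.28 in untreated tumours. Only the value of DSS rat 6 lay above the lowest untreated value, that of rat 10, and the difference was -0.95 (SE 0.19, adjusted p = 0.0613), with -0.70 in slide set 1 and -1.34 in set 2. In normal colon Slc16a3 rose with DSS by 0.61 (adjusted p = 0.0386), and the effects differed by -1.57 (adjusted p = 0.00263).

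Glycolytic enzymes followed with smaller differences. Pkm, which makes pyruvate in the last step, differed by -0.62 (SE 0.20, adjusted p = 0.26). Ldha, which turns pyruvate into lactate, was at 0.19, 0.33, 0.66, 0.07 and 0.07 in DSS tumours and at 0.98, 0.78, 1.29, 0.45 and -0.03 in untreated tumours, a difference of -0.43 (SE 0.14, adjusted p = 0.262). The groups overlapped through untreated rats 8 and 10. Slc2a1, the glucose importer, differed by -0.48 (SE 0.19, adjusted p = 0.41), Eno1 by -0.33 and Gapdh by -0.30. Against these, Vegfa, which drives vessel growth, was at 0.12 (adjusted p = 0.902) and Car9, a carbonic anhydrase set by hypoxia, at -0.08 (adjusted p = 0.975).

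Promoter sequence is shown for the member with the smallest p and for 2 transport and enzyme genes of the list. The hypoxia-inducible factors bind a short core, of which only the form ACGTG was searched here. The 250 bases upstream of the RefSeq start (build GRCr8, 5′ to 3′ on the gene's strand, all on the + strand) are chr10:106712078-106712327 for Slc16a3, chr1:106507842-106508091 for Ldha and chr5:138002272-138002521 for Slc2a1. Capitals mark ACGTG on either strand, read on the other strand as CACGT.
Slc16a3: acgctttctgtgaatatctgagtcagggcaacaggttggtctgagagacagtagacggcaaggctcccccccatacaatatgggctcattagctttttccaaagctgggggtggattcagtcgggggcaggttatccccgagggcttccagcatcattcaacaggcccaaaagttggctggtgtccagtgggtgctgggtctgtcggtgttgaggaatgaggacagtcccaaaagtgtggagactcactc
Ldha: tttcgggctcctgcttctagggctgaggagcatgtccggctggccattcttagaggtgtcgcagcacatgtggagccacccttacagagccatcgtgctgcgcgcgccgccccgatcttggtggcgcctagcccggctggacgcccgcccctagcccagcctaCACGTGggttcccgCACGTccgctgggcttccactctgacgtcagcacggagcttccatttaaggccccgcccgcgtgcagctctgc
Slc2a1: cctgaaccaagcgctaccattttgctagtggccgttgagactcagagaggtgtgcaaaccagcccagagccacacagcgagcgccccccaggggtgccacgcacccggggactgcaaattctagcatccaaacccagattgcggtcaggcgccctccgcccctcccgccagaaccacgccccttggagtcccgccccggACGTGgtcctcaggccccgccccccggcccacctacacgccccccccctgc
The Ldha window holds 3 matches, of which 2 overlap in the palindrome CACGTG. The Slc2a1 window holds 1 and the Slc16a3 window 0, which says only that these letters are not in that window. Of the 31 list members 28 matched a RefSeq window, and 13 of the 28 had at least 1 match in 1 of their windows. Counted by window the share was 39.4% of 33, against 16.6% of all 33469 windows. Because most list members were known targets of the hypoxia-inducible factors, this share describes the choice of list and not the difference between DSS and untreated tumours. A match is a description of sequence and not a binding site.

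Genes of the cell cycle leaned the other way. Of 32 measured genes, 8 had higher and 0 lower values at an unadjusted p under 0.05, 30 were above 0, and the median was 0.28. It was 0.14 in slide set 1 and 0.44 in slide set 2. Rrm1, a subunit of the enzyme that makes deoxynucleotides, had the smallest p. It was at 0.45, 0.67, 0.89, 1.14 and 1.0 in DSS tumours and at 0.60, 0.64, 0.17, -0.02 and -0.03 in untreated tumours, a difference of 0.56 (SE 0.17, adjusted p = 0.215). The groups overlapped in slide set 1, where the difference was 0.20, and lay apart in set 2, where it was 1.10. Top2a, which untangles replicated DNA, had the same split, with 0.06 in set 1 and 1.53 in set 2 (adjusted p = 0.472). Another Top2a probe gave 0.32 (SE 0.19), and other Rrm1 probes gave 0.39 (SE 0.16) and 0.16 (SE 0.14). Mean levels of the list in single tumours ran from 0.28 to 0.98 with DSS and from -0.13 to 0.68 without, so the groups overlapped. In normal colon 9 of the 32 genes rose with DSS and 0 fell, beside 6.04% and 7.18% of all features. The effects in the 2 tissues differed past the threshold for 1 of the 32, beside 5.12% of all features.

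Ribosome biogenesis genes, which a growing cell needs to make ribosomes, had 25 of 26 values above 0 and a median of 0.18 (0.17 and 0.18 in the slide sets). At an unadjusted p under 0.05 there were 3 higher and 0 lower, beside 5.50% and 4.05% of all features. Nop14, a processing factor of the small subunit, differed by 0.47 (SE 0.16, adjusted p = 0.298), and Fbl, the nucleolar methyltransferase fibrillarin, by 0.41 (SE 0.16, adjusted p = 0.412).

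Wnt targets had 6 higher and 1 lower of 25 at an unadjusted p under 0.05 and a median of 0.13. Nkd1, a target that restrains the pathway, was at 0.97, 0.57, 0.92, 1.23 and 0.71 in DSS tumours and at -0.11, 0.28, 0.19, 0.64 and 0.13 in untreated tumours. Only untreated rat 8 lay within the range of the DSS tumours, and the difference was 0.66 (SE 0.15, adjusted p = 0.0987). Another Nkd1 probe gave 0.45 (SE 0.23). Ephb3, an ephrin receptor of the crypt base, was at 0.96, 1.43, 1.06, 1.89 and 1.26 with DSS and at 0.37, 0.89, 0.54, 0.65 and 0.48 without, with no overlap and a difference of 0.74 (SE 0.18, adjusted p = 0.139). Axin2, the feedback inhibitor most often used as a readout of the pathway, ran from 0.89 to 1.99 with DSS and from 0.44 to 1.92 without. The groups overlapped over most of their range. Of the 25 Wnt targets 17 differed by more than 0 and 8 by less. In 1 of them, Ephb3, all DSS tumours lay above all untreated ones, and in 1 other all lay below.

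Foxa3, a forkhead factor of endodermal epithelium, was at 0.15, 0.08, -0.02, 0.57 and 0.50 in DSS tumours and at -0.22, -0.53, -0.14, -0.79 and -1.04 in untreated tumours. The groups did not overlap, and the difference was 0.80 (SE 0.16, adjusted p = 0.0622), with 0.37 in slide set 1 and 1.45 in slide set 2. The effect lay above that in normal colon by 1.06 (adjusted p = 0.0134). Of the 24 measured intestinal and endodermal transcription factors, Foxa3 was the 1 gene with an unadjusted p under 0.05. That is no more than the share of all features, 5.50% higher and 4.05% lower.

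Genes of regenerating and fetal-like epithelium are switched on after injury, often through the Yap pathway. Of 27 measured, 7 had lower and 0 higher values at an unadjusted p under 0.05, and the median was -0.28. The mean level of the list was highest in untreated rats 4 (1.60), 8 (1.39) and 10 (1.01), while untreated rats 2 (0.85) and 3 (0.77) lay within the 0.75 to 0.91 of the DSS tumours. Emp1, a membrane protein of that state, was at -2.09, -1.71, -1.26, -2.08 and -3.05 in DSS tumours and at -0.65, -0.68, 0.96, -1.86 and -1.72 in untreated tumours, a difference of -1.25 (SE 0.36, adjusted p = 0.191). Another Emp1 probe, also well above background on every tumour array, gave -0.25 (SE 0.41, unadjusted p = 0.551 by limma). In normal colon Emp1 rose with DSS by 1.87 (adjusted p = 0.00237), and the effects differed by -3.12 (adjusted p = 0.0019). Anxa1 and Anxa5, annexins that bind membranes in the presence of calcium, differed by -0.54 (adjusted p = 0.265) and -0.74 (adjusted p = 0.159) in tumours, and both rose in normal colon, by 1.66 and 1.33. The effect in tumours was below that in normal colon past the threshold for 9 of the 27 genes and above it for 0. Of all features 2.80% were below and 2.32% above.

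Neutrophil genes had 6 of 15 lower and 0 higher at an unadjusted p under 0.05, with a median of -0.21 (-0.12 in slide set 1 and -0.40 in set 2). S100a9, which pairs with S100a8 in the antimicrobial protein calprotectin, was at 2.80, 3.49, 3.68, 3.33 and 3.54 in DSS tumours and at 3.45, 3.63, 4.28, 5.29 and 5.22 in untreated tumours. The high values were those of untreated rats 8 and 10, both of slide set 2, and the difference was -1.01 (SE 0.30, adjusted p = 0.207), with -0.46 in set 1 and -1.82 in set 2. S100a8 differed by -1.21 (SE 0.36, adjusted p = 0.207), while other S100a8 probes gave -0.67 (SE 0.26) and -0.62 (SE 0.26). Both rose with DSS in normal colon, S100a9 by 2.68 and S100a8 by 3.15, and the tissue effects differed by -3.69 (adjusted p = 0.00012) and -4.36 (adjusted p = 0.000137).

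Other immune genes had small differences with few small p. Of 37 cytokines and chemokines, 30 were below 0, and 4 were lower at an unadjusted p under 0.05 and 0 higher. The median of that list was 0.02 in slide set 1 and -0.37 in slide set 2, so the lower values lay in set 2. Ccl6 was at 1.18, 1.30, 1.71, 0.42 and 1.51 with DSS and at 1.63, 1.81, 2.59, 2.39 and 2.20 without (difference -0.90, SE 0.23, adjusted p = 0.144, with -0.61 in set 1 and -1.33 in set 2). Only DSS rat 6 lay above the lowest untreated value. Of the 11 MHC class II presentation genes 10 were below 0, with a median of -0.24. Only 1 was lower at an unadjusted p under 0.05, beside 4.05% of all features. That gene was Ctss, the protease that trims the invariant chain (-0.57, SE 0.15, adjusted p = 0.15). Duox2, the epithelial oxidase that makes hydrogen peroxide at the mucosal surface, was at 1.66, 1.94, 2.37, 0.71 and 0.45 with DSS and at 2.69, 2.65, 3.21, 2.09 and 1.94 without. Its difference was -1.09 (SE 0.22, adjusted p = 0.0622), and within each slide set the DSS tumours were the lower ones.

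Some lists gave medians of opposite sign in the 2 slide sets. Interferon response genes had a median of 0.34 in slide set 1 and -0.59 in slide set 2. The mean level of that list was highest in untreated rat 8 (1.11) and DSS rat 6 (0.99) and ran from -0.13 to 0.47 in the other 8 tumours. Goblet cell genes had a median of -0.36 in set 1 and 0.31 in set 2, and absorptive colonocyte genes -0.37 and 0.24. Tff3, a goblet cell peptide that protects the mucosa, was lower in both sets (-1.10 and -0.92), with a pooled difference of -1.03 (SE 0.29, adjusted p = 0.188). Over the 27 alternatives to the main processing the Tff3 difference ran from -1.23 to -0.019, so its size depended on the processing. Of 30 absorptive genes, 5 were lower and 1 higher at an unadjusted p under 0.05 (0 and 0 without the slide set term), and of 14 goblet cell genes 3 were lower and 0 higher.

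Lists of other cell types bear on the makeup of the samples, and their part in the results was not tested. The mean level of smooth muscle genes ran from -1.39 to -1.03 in DSS tumours and from -1.71 to -0.67 in untreated tumours. Those of fibroblast and matrix genes ran from -1.0 to -0.23 and from -1.20 to -0.29. The level of absorptive colonocyte genes, which the normal lining expresses, ran from -2.06 to -1.50 and from -2.32 to -1.08. In each of these the untreated tumours covered the wider range and the groups overlapped. The highest smooth muscle and absorptive values were those of untreated rat 2.

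**Figure D2:**
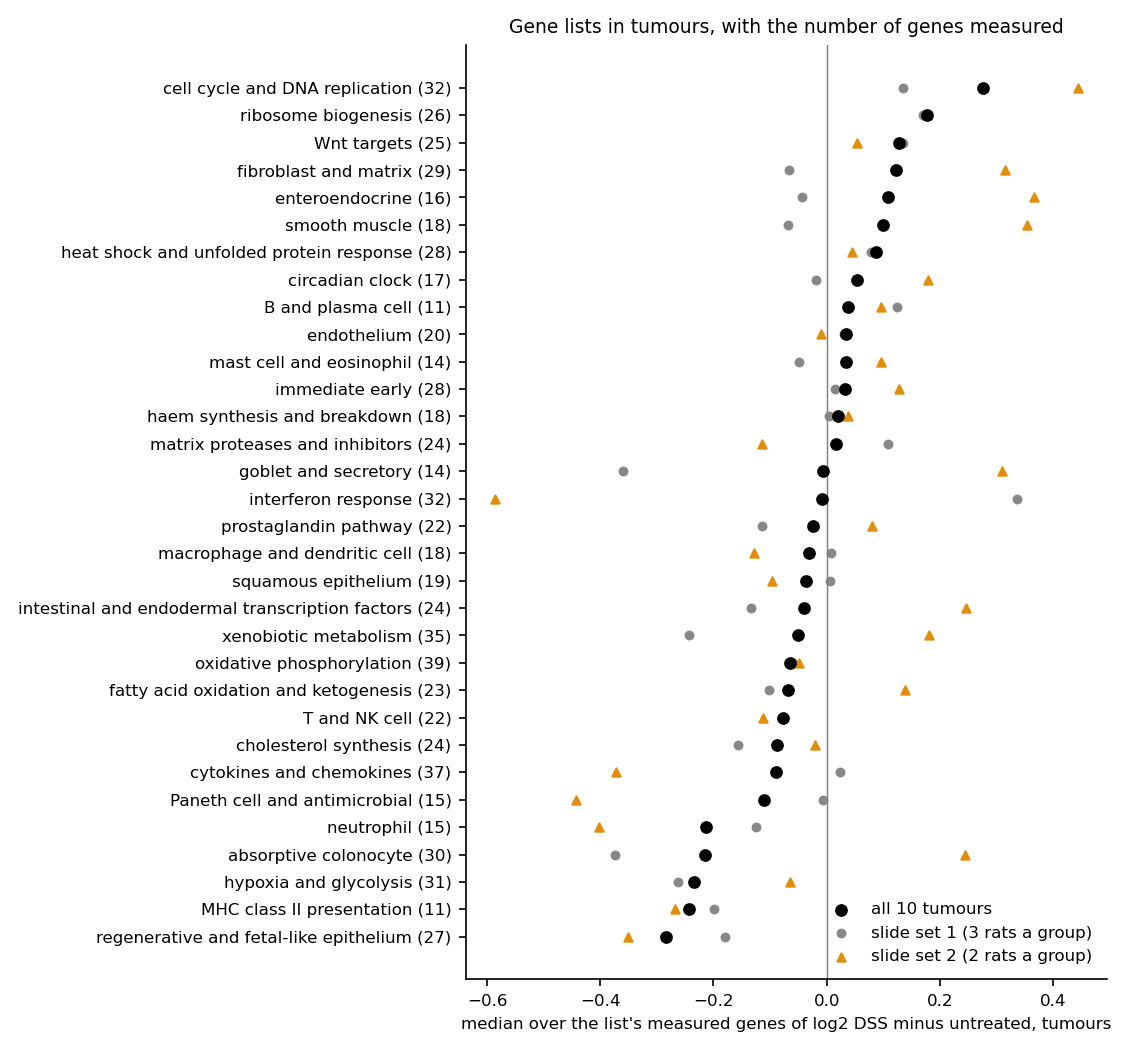
Median over the measured genes of each of 32 lists of the log2 difference between DSS and untreated tumours (x axis), with the number of genes measured in brackets. Black points use all 10 tumours, grey circles slide set 1 and orange triangles slide set 2. Cell cycle genes lie highest at 0.28 and the regenerative list lowest at -0.28, and for interferon response genes the sets lie on opposite sides of 0.

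Genes that changed most with DSS in normal colon were then read in tumours. Their change in normal colon enters the test between tissues, so its result for them is not independent of the choice. In normal colon 3528 features passed the threshold (13.2%), 1613 higher (6.04%) and 1915 lower (7.18%). For 3291 of these 3528 the 95% interval of the tumour difference lay within 2-fold, a share to be read beside 96.8% of all features. The difference between the DSS effects in tumours and in normal colon passed the threshold for 1366 features (5.12%), with 746 (2.80%) lower and 620 (2.32%) higher in tumours. Leaving out rats in turn gave 625 to 1534, with the count more than 1.5 times smaller without DSS rats 1, 5 or 9 (659, 813 and 882) and without untreated rats 3, 4 or 8 (890, 665 and 625). The count was 422 in slide set 1 alone and 3 in slide set 2 alone, where 2 rats remain in each group.

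Fabp5, a fatty acid binding protein of squamous and injured epithelium, rose with DSS by 5.29 in normal colon. In tumours it was at 0.61, 0.28, 1.36, 1.44 and 1.33 with DSS and at 0.50, 0.25, 1.03, 1.76 and 1.24 without, so the groups overlapped fully and the difference was 0.05. The effects differed by -5.24, past the threshold. Untreated normal colon lay at -3.89 to -1.79, below every tumour.

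Upk1b, a tetraspanin of urothelium and other stratified linings, rose by 5.82 in normal colon and differed by 0.03 in tumours. All 10 tumours lay between -4.54 and -1.94, beside -4.17 to -1.58 in untreated normal colon. The Upk1b probe was well above background on 3 of the 6 DSS tumour arrays, so its tumour levels lie near the detection limit and their order is not read. Tumours lay above untreated normal colon for Fabp5. Of 19 measured squamous epithelial genes, 19 rose past the threshold in normal colon with a median of 2.71, beside 6.04% of all features. In tumours 0 had an unadjusted p under 0.05 and the median was -0.04. For 17 of the 19 the effect in tumours was below that in normal colon past the threshold, beside 2.80% of all features. A probe with signal only in DSS normal colon could enter the list, since 5 of 24 arrays sufficed. These counts are therefore not independent of that filter. Other probes of Krt5, Csta and Upk1b were well above background on 0 tumour arrays.

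Cd44, a hyaluronan receptor and Wnt target, and Mmp7 rose in normal colon with DSS, by 2.89 and 3.69. In tumours Cd44 was at 2.09 to 2.58 with DSS and at 1.98 to 3.05 without, above the 0.45 to 1.28 of DSS normal colon. The tumour difference was -0.21 for Cd44 and 0.08 for Mmp7, and both effects differed between the tissues (-3.09 and -3.61). The Mmp7 spot was saturated on 2 of the 5 untreated tumour arrays, which compresses its values, so its differences are approximate, and with scale normalization the tumour difference was -1.71. Cxcl2, a neutrophil attractant, rose by 4.88 in normal colon and differed by -0.65 in tumours, where it ran from 2.78 to 5.38 with DSS and from 1.80 to 6.39 without. Cmahp was the gene with the largest fall in normal colon, by 4.33, and all 10 tumours were already between -6.07 and -4.21 with a difference of 0.03.

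Clca4l, like Clca4, had a tumour difference opposite in sign to its change in normal colon. It was at 1.15, 1.73, 2.35, 2.10 and 4.53 in DSS tumours and at 1.52, 3.58, 4.14, 6.66 and 5.22 in untreated tumours. The groups overlapped, DSS rat 9 being the highest of its group, and the difference was -1.85 (SE 0.69, adjusted p = 0.351), with -1.34 in slide set 1 and -2.63 in set 2. In normal colon Clca4l rose by 5.43, and the effects differed by -7.28 (SE 0.97, adjusted p = 0.00044).

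**Figure D3:**
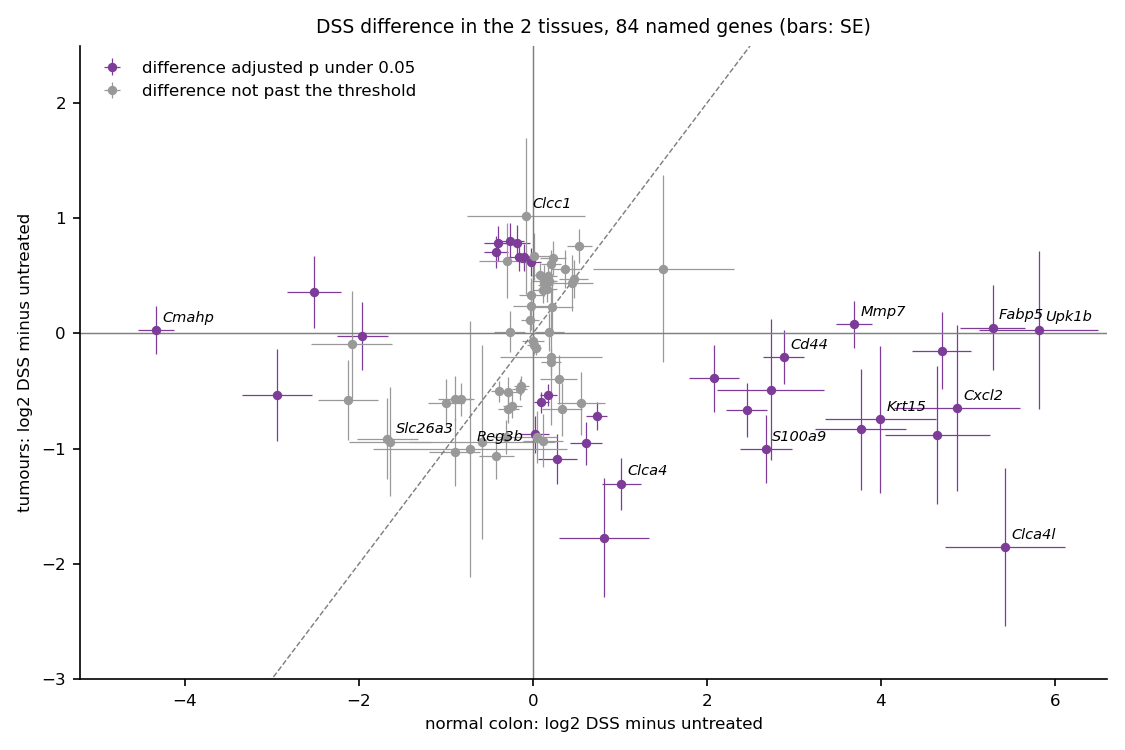
Log2 difference between DSS and untreated rats in normal colon (x axis) and in tumours (y axis) for the 84 genes chosen for naming, with standard errors as bars and a dashed line of equal effects. Purple genes differ between the tissues past the threshold. Genes such as Fabp5, Upk1b and Mmp7 lie far to the right near a tumour difference of 0, and Clca4l lies below it at -1.85.

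Tumours of 1 treatment differed from each other by a median SD of 0.216 with DSS and 0.208 without, and by 0.180 once slide set was removed. Genes of very different function were among those with the largest spread. Reg3b, an antimicrobial lectin of the gut lining, was at -2.25, -3.45, -3.03, -2.91 and -2.69 in DSS tumours and at -1.15, -4.16, -3.76, 3.96 and -4.22 in untreated tumours. The SD was 0.44 with DSS and 3.49 without, and the single high value was that of untreated rat 8. Reg3g, its close relative, had the same single high value, 1.53 in rat 8, against -4.34 to -1.76 in the other 9 tumours. Without untreated rat 8 the Reg3b difference turned from -1.0 to 0.48.

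Hbb-b1, a haemoglobin chain, ran from -4.19 to 0.27 with DSS and from -2.85 to -1.56 without, and Aqp3, a water and glycerol channel, from -4.01 to -0.73 and from -2.32 to 0.48. Clcc1, a channel of the endoplasmic reticulum, was at 5.43 in DSS rat 9 and between -0.69 and 0.40 in the other 9 tumours, while another Clcc1 probe had a difference of 0.28 (SE 0.18). Krt15 ran from -1.17 to 1.71 with DSS and from -0.41 to 2.55 without. Each of these genes had overlapping groups.

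**Figure D4:**
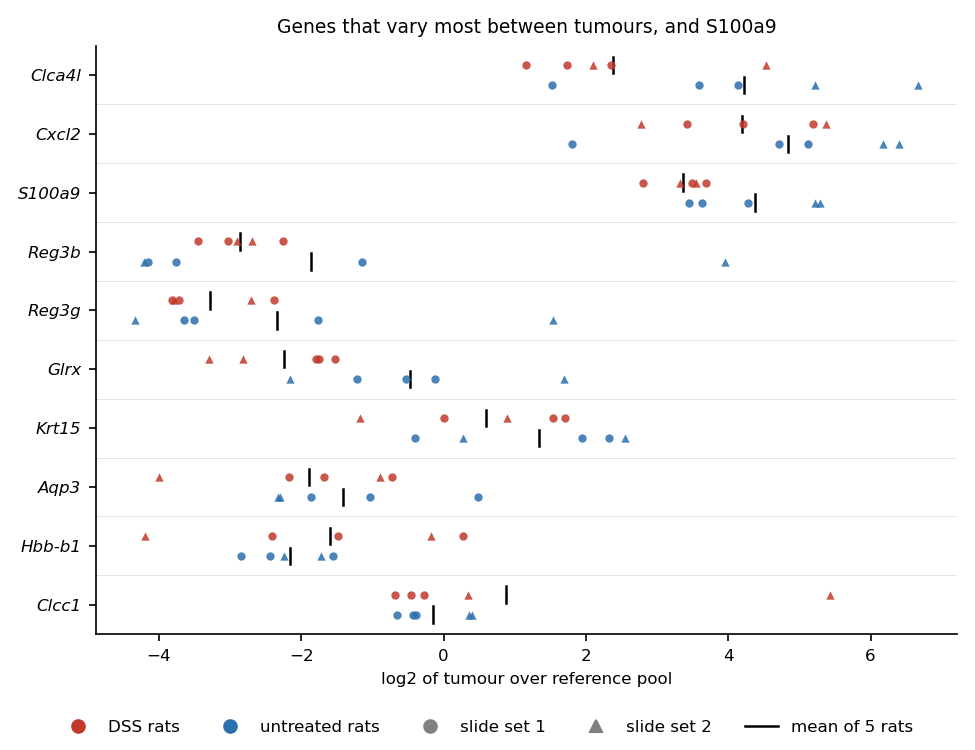
Log2 ratio of tumour RNA over the reference pool (x axis) for 9 genes of large spread between tumours, with S100a9. Points are single rats, red for DSS and blue for untreated, circles for slide set 1 and triangles for slide set 2, and the bar is the mean of 5 rats. Reg3b and Reg3g each have 1 untreated tumour, of rat 8, far to the right, and Clcc1 has 1 DSS tumour, of rat 9, at 5.43.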

How the data were processed

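RNA of tumours and normal colon was labelled with Cy3 and hybridized with a Cy5-labelled wild-type colon pool to 2-colour rat arrays, with no dye swap, per the labels. Per the file headers, Agilent Feature Extraction 9.1.3.1 wrote the deposited spot intensities and, as a log10 ratio of Cy5 over Cy3, the deposited ratio of each spot. The submitters' processing notes also name Partek, without saying what it did.

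The tools were limma 3.58.1 with statmod 1.5.0, and data.table (version 1.17.8), under R 4.3.3. Background was removed from mean intensities by normexp (offset 50), and each array's log2 Cy3 over Cy5 ratios then had a loess curve subtracted. Control and non-uniform spots had weight 0. Spots of 1 probe and arrays of 1 rat and tissue were averaged. Features were well above background on at least 5 of 24 arrays. The brightest probe stood for a gene, which gave 26684 features, 13337 with a symbol. Of 41012 gene probes, 10835 were named by accession, 5196 by a current and 4560 by an older symbol, and 20421 kept the file's name. Of 831 list entries 730 were measured. limma fitted 4 group means and slide set to 20 samples (15 residual degrees of freedom), with two-sided moderated tests adjusted by Benjamini-Hochberg over all features. Missing values were 396 (0.0742%). The fit was tested on simulated data.

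Named genes were the 12 of smallest p in each direction with a symbol and signal on at least 4 arrays of 1 tumour group, the member of smallest p of each list, 16 eligible genes (among them Apc, Axin2, Mmp7, Reg3b), the 6 largest rises and 6 largest falls in normal colon, and the 10 of largest spread. The text names a subset (1 of the 12 genes with lower values is not reported here), and other list members it names were chosen after their values were seen. Members and lists were chosen with earlier results of these data known. Tumours of DSS and untreated rats share no animal, so no pairing applies to them. Alternatives were the batch terms, normalization, filters, single arrays of rat 6, the block and each rat left out.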

Additional observations from a re-analysis of the deposited data

Results flagged for a closer look

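Among 116 groups of 5 tumours (58 genes in the 2 treatments) tested for a single sample far from the others, which chance alone would give in about 1 in 20 groups, 2 stood out, both in the tumour of DSS rat 9. Apc was at -0.59 there against -0.0011 to 0.19 in the other DSS tumours. Clcc1 was at 5.43 against -0.69 to 0.34.

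For 27 of 58 genes the effect of DSS in tumours differed from that in normal colon by a test of the difference itself (limma, adjusted p under 0.05), beside 5.12% of all features. It was lower in tumours for 19. These were Clca4l (-7.28), Upk1b (-5.78), Cxcl2 (-5.52), Fabp5 (-5.24), Krt15 (-4.74), S100a9 (-3.69), Mmp7 (-3.61), Aqp3 (-3.22), S100a4 (-3.12), Cd44 (-3.09), Glrx (-2.59), Il1b (-2.47), Clca4 (-2.32), Slc16a3 (-1.57), Rac2 (-1.45), Duox2 (-1.37), Alas1 (-0.90), Heph (-0.71) and Ap2a2 (-0.70). It was higher in tumours for 8, namely Cmahp (4.36), Rasd2 (1.19), Prkag2 (1.13), Foxa3 (1.06), Bcat2 (0.97), Kif12 (0.83), Ptov1 (0.77) and Tead2-ps1 (0.65). Most of the 58 genes were chosen for a small p in tumours or a large change in normal colon, both of which enter this difference, so the count is not independent of the choice and is no measure of how often genes differ. Mmp7 (saturated on 2 untreated tumour arrays) and Upk1b (well above background on 3 of 6 DSS tumour arrays) have approximate values.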

How the results depend on the processing

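Of 58 named genes, 37 kept the sign of their tumour difference under all 27 alternatives and 21 changed it under at least 1. Slc16a3 (-2.02 to -0.30), Duox2 (-2.07 to -0.44) and S100a9 (-2.27 to -0.43) kept their sign but varied in size. The count past the threshold in tumours, 0, became 4 with scan day and 10 with slide as a term, 1 each with median centring, the scanner's processed signals and a robust prior, and 70 with the first array of rat 6 alone. It was 0 to 7 with each rat left out. The difference between tissues, 1366, became 666 without slide set, 422 in slide set 1, 3 in set 2, 2075 with median centring, 2103 with processed signals, 676 with scale and 2418 with quantile normalization, and 625 to 1534 with each rat left out. With the replicate block it was 1672 (rat as a random block) and 1497 (fixed block), and the random block left the tumour count at 0. The count in normal colon, 3528, became 1931 without slide set, 2 in set 2, 5792 with array weights, 1317 with median centring, 1679 with scale and 5410 with quantile normalization.

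Median centring turned Heph (0.072), Sec23a (0.099), Scarb2 (0.018), Ostf1 (0.18), Cd14 (0.15), Ctss (0.073), Slc9a2 (0.066), Il1b (0.11), Cd44 (0.39), Apc (0.12) and Aqp3 (0.15). Scale normalization turned Slc9a2 (0.0026), Mmp7 (-1.71), Fabp5 (-0.15) and Aqp3 (0.22). Slide set 1 alone turned Il1b (0.19), Apc (0.020), Reg3b (0.11), Upk1b (-0.41), Cmahp (-0.29) and Cxcl2 (0.39), and set 2 alone Slc26a3 (0.095), Fabp5 (-0.12) and Hbb-b1 (-0.20). Array weights turned Apc (0.062) and Aqp3 (0.070), slide as a term Upk1b (-0.098) and Cmahp (-0.0071), and processed signals Cmahp (-0.017). With each rat left out the signs of Apc (-0.14 to 0.063), Aqp3 (-0.80 to 0.047), Clcc1 (-0.026 to 1.41), Cmahp (-0.063 to 0.25), Fabp5 (-0.12 to 0.18), Mmp7 (-0.023 to 0.12), Reg3b (-1.72 to 0.48), Reg3g (-1.48 to 0.068) and Upk1b (-0.17 to 0.46) varied. The causes were not tested.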
